A study of Mus musculus and Homo sapiens with 16 samples.

Results

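The hair shaft keratins and the keratin-associated proteins were followed across 10 RNA libraries of mouse skin epithelium. Members were listed by name: every gene whose symbol starts with Krtap, and the hair keratins Krt31, Krt32, Krt33a, Krt33b, Krt34, Krt35, Krt36, Krt81, Krt82, Krt83, Krt84 and Krt86. This rule was set with earlier results of these data known. The rule also named Krt85, but no gene of that symbol was in the count tables, so nothing is known of it here. The count tables held 67 such genes among 39179, of which 12 were hair keratins and 55 were Krtap genes. In unsorted epidermis of the set titled HFD, their summed level was 0.278 times as high in Klf5-/- as in Klf5+/- libraries. Of 29 members tested there 6 fell, where 4.02% of all genes tested did. Of the 29, 12 passed the filter on low counts through the Klf5+/- libraries alone. The calls other than that of Krt35 depended on single libraries. In sorted E17.5 epithelium most members had no count at all. Of 4 members tested there, 1 keratin, Krt36, rose in the Klf5-/- libraries, where 0.0331% of all genes tested did. Krt36 passed the filter through those libraries alone, and its call was kept in 7 of 13 alternative settings.

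Hair keratins are intermediate filament proteins of the hair follicle. A type I and a type II keratin pair into filaments, which fill the cells of the cortex and the cuticle as these leave the follicle's matrix and harden. Keratin-associated proteins, encoded by the Krtap genes, form the sulphur-rich or glycine- and tyrosine-rich material that embeds and cross-links those filaments. Their genes are switched on in order up the shaft, keratins before most keratin-associated proteins, while interfollicular epidermis uses other keratins such as Krt5, Krt14, Krt1 and Krt10.

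All RNA came from C57BL/6 mice, and each library carried the genotype label Klf5-/- or Klf5+/-. KLF5 is a zinc-finger transcription factor of epithelia. The E17.5 groups were Klf5-/- (3 libraries) and Klf5+/- (3 libraries): dispase-treated embryonic skin gave an epidermal sheet, and its trypsinised cells were sorted as those that were DAPI-, CD45- and Integrin A6+, a surface marker of basal keratinocytes. The HFD groups were Klf5-/- (2 libraries) and Klf5+/- (2 libraries). That epidermis was peeled after dispase and ground in liquid nitrogen with no sort, a directional kit made its libraries, and neither an age nor a meaning of HFD is given in the labels. No wild-type RNA library was among those analysed, no driver or deleted segment of the Klf5 allele is named, and no label ties the libraries of a group to different animals, so that p-values measure only the spread between libraries, which may be technical. Fewer cells of a type and less RNA per cell cannot be told apart in such bulk samples.

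Counts on genes ranged from 31819010 to 46445546 per library, so that 3 counts, taken as the floor of detection, correspond to 0.0646 to 0.0943 CPM (read counts scaled to a common library size). Intervals and floors cover counting error only. Replicates were more different than sampling noise, with a reduced chi-square of at least 20.9 in every pair. The interfollicular keratins Krt5, Krt14, Krt1 and Krt10 were abundant in all 10 libraries. Klf5 itself had 6934, 7211 and 6501 counts in Klf5-/- and 8376, 6609 and 6624 counts in Klf5+/- libraries at E17.5. In the HFD set it had 2953 and 4956 counts in Klf5-/- and 2523 and 1575 counts in Klf5+/- libraries. The deleted segment is not named, so these whole-gene counts are no check of genotype, and Klf5-/- and Klf5+/- name libraries by their labels throughout.

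The members lie in 5 clusters of the mm10 genome. The type I keratins Krt31 to Krt36 and 23 Krtap genes share chromosome 11, from 99550132 to 100105626, and the type II keratins share chromosome 15, from 101431490 to 101550659. A further 24 Krtap genes lie on chromosome 16, from 88610709 to 89571183. The remaining 5 are on chromosome 7, from 142174535 to 142304503, and 3 on chromosome 10, from 77720586 to 77836652. The gene that the files name Krt83 lies where RefSeq places Krt87, and the files' name is kept. Krtap10-10 lies within Tspear on the same strand and overlaps Krtap10-4, and Krt32 overlaps the antisense gene Gm11571. Reads of such neighbours may be split or lost, as may reads of near-identical Krtap copies, because 4.70 to 9.09% of reads aligned to more than 1 place and were not counted.

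RefSeq promoter windows (build GRCm38.p6, 250 bases before and 50 bases after the annotated start) were found for 56 of the 67 members by symbol. The following 6 are shown because they belong to the keratin that rose at E17.5 (Krt36), the keratin with the higher level in Klf5-/- libraries of both sets (Krt84), a keratin and 2 keratin-associated genes that fell in the HFD set (Krt33b, Krtap8-1 and Krtap24-1), and the Krtap gene of highest level in both genotypes of the HFD set, which did not pass the test (Krtap17-1). All 6 are on the minus strand and are written 5′ to 3′ in the direction of the gene. Capitals mark matches, on either strand, to TATAAA (the TATA box), CACCC (the core of sites bound by Krüppel-like factors) and CTTTGA (a core of LEF1 sites).
Krt36: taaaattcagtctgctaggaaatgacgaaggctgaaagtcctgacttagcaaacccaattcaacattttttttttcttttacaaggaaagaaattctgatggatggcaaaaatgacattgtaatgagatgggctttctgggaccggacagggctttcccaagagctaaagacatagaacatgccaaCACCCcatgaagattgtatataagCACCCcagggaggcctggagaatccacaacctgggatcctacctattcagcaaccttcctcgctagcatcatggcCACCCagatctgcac
Krt84: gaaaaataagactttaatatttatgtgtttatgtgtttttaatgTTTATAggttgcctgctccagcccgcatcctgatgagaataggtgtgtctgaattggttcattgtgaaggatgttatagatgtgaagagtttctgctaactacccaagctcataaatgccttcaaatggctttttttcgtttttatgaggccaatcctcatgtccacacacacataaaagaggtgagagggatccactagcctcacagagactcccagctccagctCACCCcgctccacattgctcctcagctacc
Krt33b: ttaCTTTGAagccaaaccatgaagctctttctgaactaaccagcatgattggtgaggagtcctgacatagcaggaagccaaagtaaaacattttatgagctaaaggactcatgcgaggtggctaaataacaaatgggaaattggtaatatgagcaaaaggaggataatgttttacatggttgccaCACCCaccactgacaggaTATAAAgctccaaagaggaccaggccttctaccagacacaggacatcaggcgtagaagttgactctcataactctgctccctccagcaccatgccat
Krtap8-1: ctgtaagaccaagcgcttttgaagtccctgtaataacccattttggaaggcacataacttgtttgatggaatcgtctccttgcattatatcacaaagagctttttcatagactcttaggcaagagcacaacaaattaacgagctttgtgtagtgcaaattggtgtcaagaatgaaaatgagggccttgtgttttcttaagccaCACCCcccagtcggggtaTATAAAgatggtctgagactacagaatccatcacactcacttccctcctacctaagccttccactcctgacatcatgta
Krtap24-1: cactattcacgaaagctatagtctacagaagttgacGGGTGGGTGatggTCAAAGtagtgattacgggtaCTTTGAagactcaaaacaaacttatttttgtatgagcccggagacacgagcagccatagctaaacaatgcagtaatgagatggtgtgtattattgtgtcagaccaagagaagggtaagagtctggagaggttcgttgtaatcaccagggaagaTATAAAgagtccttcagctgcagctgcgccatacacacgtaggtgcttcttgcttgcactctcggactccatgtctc
Krtap17-1: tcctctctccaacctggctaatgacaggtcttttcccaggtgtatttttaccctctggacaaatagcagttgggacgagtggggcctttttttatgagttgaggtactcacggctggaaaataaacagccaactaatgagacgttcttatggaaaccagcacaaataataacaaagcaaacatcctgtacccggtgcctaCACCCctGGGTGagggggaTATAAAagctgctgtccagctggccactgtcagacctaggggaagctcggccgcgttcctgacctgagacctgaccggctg
The windows are chr11:100105577-100105876 for Krt36, chr15:101532771-101533070 for Krt84, chr11:100029819-100030118 for Krt33b, chr16:89487903-89488202 for Krtap8-1, chr16:88612230-88612529 for Krtap24-1 and chr11:99993945-99994244 for Krtap17-1. TATAAA began 29, 27 and 31 bases before the start of Krtap8-1, Krtap24-1 and Krtap17-1, and 47 bases before that of Krt33b. Krt36 has no TATAAA in its window, and Krt84 has it only on the opposite strand, 206 bases before the start. The pair of CACCC matches of Krtap24-1, read on the other strand as GGGTG, share a base.

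TATAAA was in 46 of the 56 windows (82.1%), against 13.6% of all 32817 promoter windows of the same length. On the gene's own strand, with the whole match between 45 and 16 bases before the start, it was in 34 of 56 (60.7%), against 2.14% of all promoters. CTTTGA was in 18 of 56 windows (32.1%), against 16.0% of all. CACCC was in 29 of 56 (51.8%), against 57.5% of all. The GC box GGGCGG, searched on both strands like the others, was in 0 of 56, against 35.6% of all promoters. Neighbouring Krtap genes are copies of one another, so these windows are not independent, and a match to letters is not a bound site.

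Detection differed widely between the sets. In E17.5 libraries 16, 14 and 11 members had at least 1 count in Klf5-/- and 12, 13 and 11 in Klf5+/-. In HFD libraries 22 and 44 members had a count in Klf5-/- and 50 and 49 in Klf5+/-. All 12 keratins had counts in each of the 4 HFD libraries. At E17.5, 49 of the 67 members had no count in any of the 6 libraries, 48 of them Krtap genes. In all 10 libraries together 12 members had none: Krtap5-1, Krtap5-3, Krtap5-4, Krtap6-3, Krtap9-5, Krtap19-1, Krtap19-2, Krtap19-3, Krtap19-4, Krtap20-2, Krtap31-1 and Krtap31-2. A count of 0 limits each to under the 3-count floor given above and does not show absence.

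**Figure D1:**
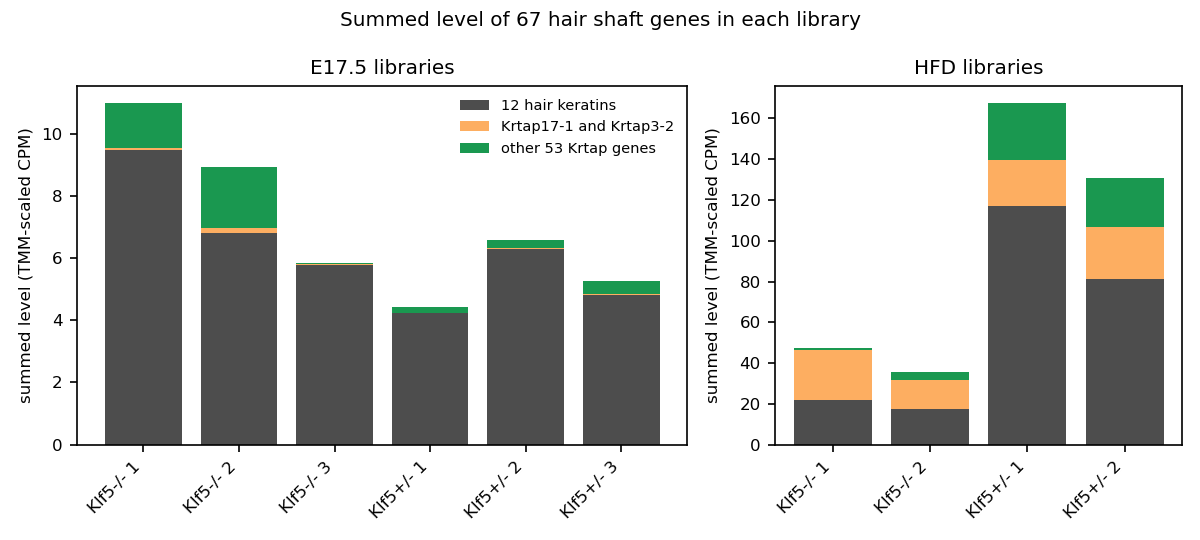
Summed level of the 67 hair shaft genes in each library, in CPM after TMM scaling within each set; bars are single libraries, split into the 12 keratins, Krtap17-1 with Krtap3-2, and the other 53 Krtap genes. The 2 HFD Klf5-/- libraries reach 47.2 and 35.7 and the 2 Klf5+/- libraries 168 and 131, while the E17.5 libraries lie between 4.42 and 11.0; each panel has its own axis.

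In the HFD set the summed level of all members was 47.2 and 35.7 CPM in Klf5-/- libraries and 168 and 131 CPM in Klf5+/- libraries, that is, 41.5 ± 8.15 and 149 ± 26.0 CPM (SD, n = 2 each). The Klf5-/- libraries lay below both Klf5+/- libraries, as the plot of summed levels shows. The 12 keratins together stood at 19.5 ± 3.13 CPM in Klf5-/- and 99.3 ± 25.4 CPM in Klf5+/- libraries, a ratio of 0.196. Krt35 alone carried 13.2% of all member counts in Klf5-/- and 38.7% in Klf5+/- libraries. Without Krt35 the ratio for all members was 0.393. No p-value is given for a sum over members, since their choice was made with results known.

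Most Krtap counts of the Klf5-/- libraries came from a pair of genes. Krtap17-1 and Krtap3-2 together stood at 24.7 and 14.5 CPM in Klf5-/- and at 22.6 and 25.2 CPM in Klf5+/- libraries, so the genotypes overlapped. The other 53 Krtap genes summed to 0.822 and 3.94 CPM, or 24 and 163 counts, in Klf5-/- libraries. They summed to 27.7 and 24.3 CPM, or 1115 and 894 counts, in Klf5+/- libraries, which is 10.9-fold higher in the means. The pair was singled out after its values were seen. Krtap17-1 and Krtap3-2 made up 46.3% of all member counts in Klf5-/- libraries and 15.9% in Klf5+/- libraries. Without them the ratio of the summed member level was 0.174.

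By protein class, the high-glycine-tyrosine genes summed to 1.29 ± 1.19 CPM in Klf5-/- and 14.9 ± 2.18 CPM in Klf5+/- libraries, 11.6-fold higher in Klf5+/-. The high-sulphur genes, which include Krtap3-2, summed to 7.13 ± 1.79 CPM in Klf5-/- and 13.0 ± 2.48 CPM in Klf5+/- libraries. The ultra-high-sulphur genes, which include Krtap17-1, summed to 13.6 ± 4.42 CPM in Klf5-/- and 22.0 ± 0.937 CPM in Klf5+/- libraries. The ratio of Klf5-/- to Klf5+/- was 0.0865 for the glycine- and tyrosine-rich class, 0.551 for the high-sulphur and 0.615 for the ultra-high-sulphur class. Without Krtap3-2 the high-sulphur ratio was 0.0947 (0.789 ± 0.728 CPM in Klf5-/- and 8.33 ± 0.673 CPM in Klf5+/-). Without Krtap17-1 the ultra-high-sulphur ratio was 0.110 (0.305 ± 0.286 CPM in Klf5-/- and 2.78 ± 0.376 CPM in Klf5+/-; SD, n = 2 each). Both genes were left out after their values were seen.

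The genotype test of the HFD set (edgeR's quasi-likelihood test, Benjamini-Hochberg adjustment over 15848 genes, threshold 0.05) covered 29 members that passed the filter on low counts. Of these, 6 fell in Klf5-/- libraries, where 4.02% of all genes tested fell. The 6 were Krt35, Krt33b, Krt81, Krt86, Krtap8-1 and Krtap24-1. None rose, against 1.48% of all genes, and 1 member had a higher level at an unadjusted p under 0.05, where 10.7% of all genes did; 23 had a lower one, where 16.4% of all genes did. DESeq2 called 14 lower and 1 higher, where 10.8% and 6.75% of all genes were. Limma-voom called 10 lower and 0 higher, where 8.9% and 3.35% were. With no filter on low counts edgeR called 15 lower and 1 higher, where 6.74% and 3.94% were. Of the 29 members, 12 passed the filter through the Klf5+/- libraries with neither Klf5-/- library over its cutoff, so the count over those tested cannot stand for all 67. The genotypes did not overlap, with both Klf5-/- libraries lower, for 39 of the 55 members with any count (70.9%), against 28.2% of all genes with any count. Both Klf5-/- libraries were higher for 1 member, Krt84, where 22.0% of all genes were.

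**Figure D2:**
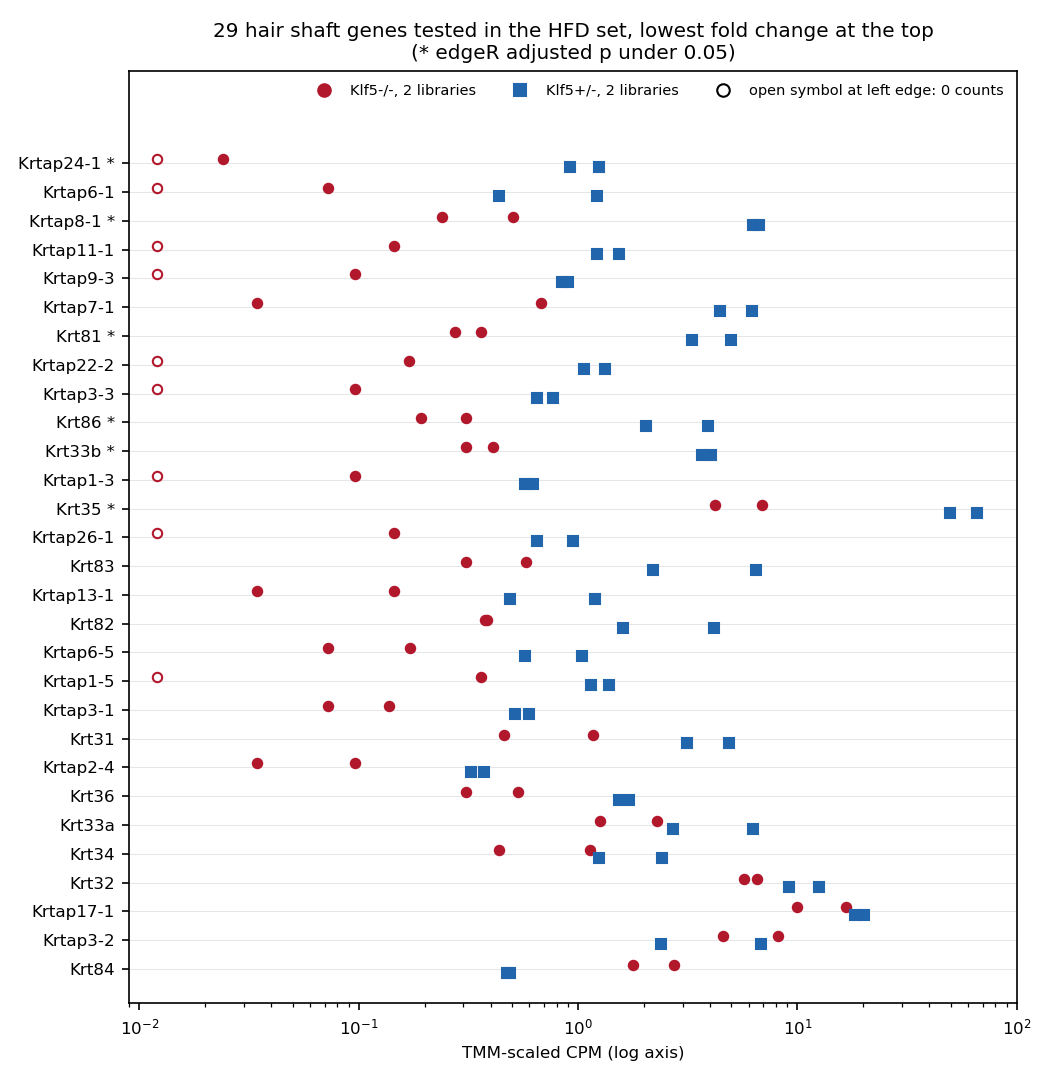
Level of the 29 hair shaft genes tested in the HFD set, in TMM-scaled CPM on a log axis; each gene has 2 points for Klf5-/- and 2 for Klf5+/- libraries, ordered by log2 fold change with the lowest at the top. Most Klf5-/- points lie left of the Klf5+/- points; the exceptions are at the bottom, where Krtap3-2 overlaps and Krt84 is higher in Klf5-/-.

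Among the type I keratins, Krt35, which marks the first hair keratin synthesis in the matrix and cuticle, had 201 and 175 counts in Klf5-/- and 2647 and 1826 in Klf5+/- libraries. The groups did not overlap, and the level was 5.56 ± 1.88 CPM in Klf5-/- against 57.8 ± 11.5 CPM in Klf5+/- (SD, n = 2 each). The log2 fold change of Krt35 was −3.38 (adjusted p = 0.0320 by edgeR, SE 0.31), and it was called in each of the 12 alternative settings tried. Krt33b, a cortex keratin, had 9 and 17 counts in Klf5-/- and 148 and 148 in Klf5+/- libraries. That is a log2 fold change of −3.40 (adjusted p = 0.0338 by edgeR, SE 0.47). Its neighbour Krt33a differed less, with 67 and 52 counts in Klf5-/- and 253 and 100 in Klf5+/- libraries. Krt33a did not pass the test (log2 fold change −1.35, adjusted p = 0.188 by edgeR, SE 0.56).

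The other type I keratins were lower in both Klf5-/- libraries without passing. Krt31, of the cortex, had 34 and 19 counts in Klf5-/- and 196 and 116 in Klf5+/- libraries (log2 fold change −2.32, edgeR adjusted p = 0.0707). Krt36, a keratin that mouse tongue and tail scale epidermis also make, had 9 and 22 counts in Klf5-/- and 62 and 63 in Klf5+/- libraries (−1.93, edgeR adjusted p = 0.0957). Krt34, of the cortex, had 33 and 18 counts in Klf5-/- and 97 and 46 in Klf5+/- libraries (−1.24, edgeR adjusted p = 0.290). Krt32, of the cuticle, had 191 and 236 counts in Klf5-/- and 504 and 338 in Klf5+/- libraries (−0.83, edgeR adjusted p = 0.130). None of the 7 type I keratins overlapped between the genotypes, while their log2 fold changes ran from −3.40 to −0.83. With 2 libraries each, 28.2% of all genes with any count likewise had both Klf5-/- libraries lower.

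Among the type II keratins, Krt81, a cortex keratin, had 8 and 15 counts in Klf5-/- and 200 and 122 in Klf5+/- libraries. It fell, with a log2 fold change of −3.68 (adjusted p = 0.0338 by edgeR, SE 0.51). Krt86, also of the cortex, had 9 and 8 counts in Klf5-/- and 157 and 75 in Klf5+/- libraries and fell by 3.57 on the log2 scale (adjusted p = 0.0390 by edgeR, SE 0.62). The gene named Krt83 had 9 and 24 counts in Klf5-/- and 261 and 81 in Klf5+/- libraries, and missed the threshold at −3.26 (adjusted p = 0.0523 by edgeR, SE 0.70). Krt82, of the cuticle, had 11 and 16 counts in Klf5-/- and 167 and 59 in Klf5+/- libraries, and missed it at −2.91 (adjusted p = 0.0548 by edgeR, SE 0.64). These 4 genes were spread more widely within Klf5+/- than Krt33b was, and the first Klf5+/- library was the higher one for each.

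Krt84 went the other way. This type II keratin, known in mouse also from tongue and from tail scale epidermis, had 52 and 113 counts in Klf5-/- and 19 and 18 in Klf5+/- libraries. The level was 2.26 ± 0.670 CPM in Klf5-/- and 0.481 ± 0.0117 CPM in Klf5+/- (SD, n = 2 each), and the groups did not overlap. The log2 fold change of 2.22 (SE 0.52) did not pass the test (edgeR adjusted p = 0.0612), and it was called in 4 of 12 alternative settings. All other keratins had a negative log2 fold change in this set.

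Among the keratin-associated genes tested, Krtap8-1, a high-glycine-tyrosine gene, had 7 and 21 counts in Klf5-/- and 268 and 230 in Klf5+/- libraries. It fell by 4.07 on the log2 scale (adjusted p = 0.0337 by edgeR, SE 0.50). Krtap24-1, a high-sulphur gene whose human counterpart is known from the cuticle, had 0 and 1 counts in Klf5-/- and 37 and 46 in Klf5+/- libraries. It fell too (log2 fold change −5.98, adjusted p = 0.0390 by edgeR, SE 1.03). Krtap24-1 passed the filter through the Klf5+/- libraries alone, so among members tested it had to be lower in Klf5-/-. From the summed counts alone Krtap24-1 was 76.1-fold higher in Klf5+/- libraries, with an exact interval from 13.3 to 3043, so its size is poorly known. Krtap7-1, of the same class as Krtap8-1, had 1 and 28 counts in Klf5-/- and 249 and 163 in Klf5+/- libraries. It did not pass (−3.82, adjusted p = 0.0855 by edgeR, SE 1.01), and its Klf5-/- libraries were far apart.

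Other Krtap genes were at 0 in the first Klf5-/- library and above it in the second. Krtap11-1, a high-sulphur gene, had 0 and 6 counts in Klf5-/- and 62 and 45 in Klf5+/- libraries (log2 fold change −4.06, edgeR adjusted p = 0.0726). Krtap22-2, a high-glycine-tyrosine gene, had 0 and 7 counts in Klf5-/- and 43 and 49 in Klf5+/- libraries (−3.65, edgeR adjusted p = 0.0939). Krtap1-5, a high-sulphur gene, had 0 and 15 counts in Klf5-/- and 46 and 51 in Klf5+/- libraries (−2.69, edgeR adjusted p = 0.203). The first Klf5-/- library held 10 Krtap genes with a count and the second 32, against 38 and 37 in the Klf5+/- libraries. Among Krtap genes at 0 in both Klf5-/- libraries, Krtap1-4 had 21 counts in the 2 Klf5+/- libraries and was at least 6.42-fold lower in Klf5-/-, with the floor of 3 counts taken over the group. Krtap4-7 had 18 counts in Klf5+/- and was at least 5.50-fold lower by the same measure.

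Krtap17-1 and Krtap3-2 had the highest Krtap levels in Klf5-/- libraries. In Klf5+/- libraries Krtap17-1 came first too, but Krtap8-1 (6.46 CPM) and Krtap7-1 (5.31 CPM) stood above Krtap3-2 (4.62 CPM). Krtap17-1 had 484 and 411 counts in Klf5-/- and 811 and 674 in Klf5+/- libraries. The levels did not overlap, but the log2 fold change of −0.54 (SE 0.29) did not pass the test (edgeR adjusted p = 0.294). Krtap3-2 had 237 and 189 counts in Klf5-/- and 96 and 252 in Klf5+/- libraries, with overlapping levels (0.46, adjusted p = 0.653 by edgeR, SE 0.57). Per kilobase of exon, Krtap17-1 stood at 17.4 CPM in Klf5-/- and 25.3 CPM in Klf5+/- libraries, and Krt35 at 2.32 CPM in Klf5-/- and 24.2 CPM in Klf5+/- libraries. Next in Klf5+/- came Krtap8-1 at 11.2 CPM per kilobase, Krtap7-1 at 8.59 and Krt32 at 6.34.

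Across the 29 members tested in the HFD set the median log2 fold change was −3.26, and 27 lay below 0. Over all 15848 genes tested the median was −0.01, and 8009 lay below 0. Of the 29 members, 12 passed the filter through the Klf5+/- libraries alone and so had to be lower in Klf5-/-. The median and the count below 0 therefore follow in part from the filter. By class, 2 of 7 type I keratins, 2 of 5 type II keratins, 1 of 10 high-sulphur, 0 of 2 ultra-high-sulphur and 1 of 5 high-glycine-tyrosine genes tested fell. The calls other than that of Krt35 depended on each Klf5+/- library, and the number of calls over all genes also moved with single libraries. Leaving out a library leaves 1 in its group, so effect sizes alone are given. Without each library in turn, the log2 fold change ran from −3.75 to −3.04 for Krt35 and from −3.59 to −3.19 for Krt33b. It ran from −3.95 to −3.36 for Krt81, −3.96 to −3.02 for Krt86, −4.70 to −3.64 for Krtap8-1 and −8.25 to −5.29 for Krtap24-1.

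Other hair follicle genes moved in the same libraries. Over all genes tested in the HFD set edgeR called 4.02% lower and 1.48% higher. DESeq2 called 10.8% and 6.75%, and limma-voom 8.9% and 3.35%. At an unadjusted edgeR p under 0.05, 16.4% of all genes were lower and 10.7% higher. Of 9 genes of the inner root sheath, the cell layers that mould the shaft, all 9 were tested and 7 fell: Krt71, Krt25, Krt27, Krt28, Krt73, Krt72 and Krt26. Krt71 stood at 26.2 ± 3.34 CPM in Klf5-/- and 257 ± 10.3 CPM in Klf5+/- libraries (SD, n = 2 each; log2 fold change −3.29, adjusted p = 0.0126 by edgeR, SE 0.19). Of 11 other shaft proteins tested, 5 fell: S100a3, a calcium-binding protein of the cuticle, Padi3, which deiminates trichohyalin, Dsg4, a desmosomal cadherin of the shaft, Ly6g6d and Gprc5d. S100a3 stood at 7.95 ± 1.21 CPM in Klf5-/- and 43.0 ± 13.4 CPM in Klf5+/- (log2 fold change −2.44, adjusted p = 0.0337 by edgeR, SE 0.29). Of 14 regulators of the hair matrix, 3 fell, with 8 above and 6 below 0: the homeobox genes Msx1 (−3.02, edgeR adjusted p = 0.0337) and Msx2 (−1.76, edgeR adjusted p = 0.0461), and Trps1 (−1.46, edgeR adjusted p = 0.0391). Of 10 outer root sheath and companion layer genes 1 fell, Krt75 of the companion layer (−2.21, edgeR adjusted p = 0.0337), and 7 lay above 0. At an unadjusted edgeR p under 0.05, 4 of this list were higher and 2 lower. DESeq2 called 3 higher and 2 lower, and limma-voom 2 higher and 2 lower. The list summed to 4378 and 7062 CPM in Klf5-/- and to 3695 and 2634 CPM in Klf5+/- libraries. Most of that sum was Krt15, Krt16 and Krt17, so it does not stand for the whole list. Krt16 stood at 1499 ± 955 CPM in Klf5-/- and 300 ± 105 CPM in Klf5+/- (SD, n = 2 each, edgeR adjusted p = 0.0726). Krt15 stood at 2042 and 1657 CPM and Krt17 at 781 and 710 CPM, in the means of Klf5-/- and Klf5+/- libraries. Of 9 placode and germ genes, such as Ptch1 and Gli1, none passed with edgeR, DESeq2 or limma-voom, 8 lay above 0, and 0 had an unadjusted edgeR p under 0.05.

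**Figure D3:**
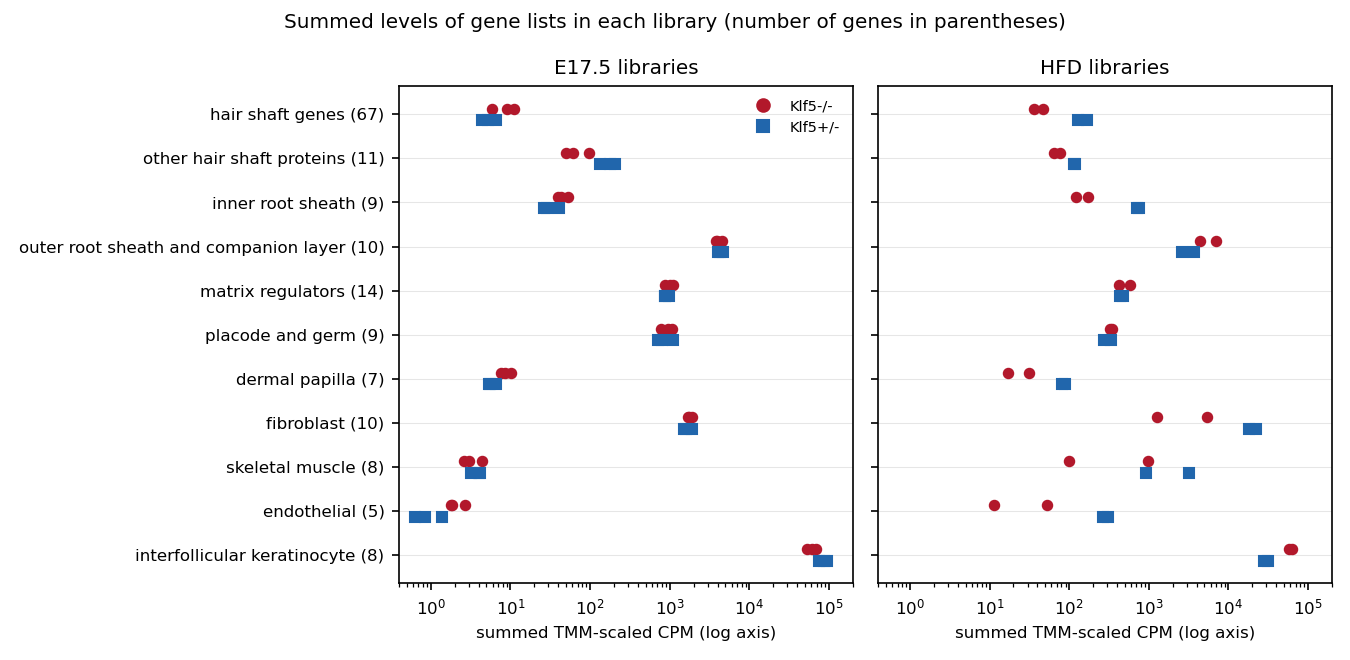
Summed level of gene lists in each library, in TMM-scaled CPM on a log axis, E17.5 at left and HFD at right; each point is a library. In the HFD panel the hair shaft, other hair shaft protein, inner root sheath, dermal papilla, fibroblast and endothelial rows have both Klf5-/- points left of the Klf5+/- points. The interfollicular keratinocyte row and the outer root sheath and companion layer row have them to the right.

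Several lists of markers of cells outside the epithelium were lower in Klf5-/- libraries of the HFD set. Beside them, edgeR called 4.02% of all genes lower and 1.48% higher, DESeq2 10.8% and 6.75%, and limma-voom 8.9% and 3.35%. Of 7 dermal papilla markers all 7 were tested and 4 fell (Sox18, Rspo3, Alx4 and Fgf7; 5 by DESeq2 and 5 by limma-voom), and the list summed to 17.2 to 31.6 CPM in Klf5-/- and 80.4 to 89.2 CPM in Klf5+/- libraries. The 10 fibroblast markers summed to 5433 and 1283 CPM in Klf5-/- and to 18330 and 22130 CPM in Klf5+/- libraries; all 10 lay below 0 and 1, Postn, fell, while DESeq2 called 4 lower and limma-voom 7. The 5 endothelial markers summed to 52.6 and 11.3 CPM in Klf5-/- and to 268 and 311 CPM in Klf5+/- libraries, and 2 fell (Kdr and Tek), while DESeq2 called 4 lower and limma-voom 5. The 8 skeletal muscle markers summed to 985 and 100.6 CPM in Klf5-/- and to 3190 and 925 CPM in Klf5+/- libraries, with 0 called by edgeR, DESeq2 or limma-voom and 0 at an unadjusted edgeR p under 0.05. Of 5 erythroid markers 4 fell (Hbb-bs, Hba-a1, Hbb-bt and Alas2; 5 by DESeq2 and 4 by limma-voom). Of 6 immune markers tested 1 fell, Lyz2, and the other 5 lay above 0; DESeq2 and limma-voom each called 1 higher and 1 lower. With edgeR 0 of 8 melanocyte markers were called, 2 being lower at an unadjusted p under 0.05, while DESeq2 and limma-voom called 1 lower each. With edgeR 0 of 7 sebaceous markers were called, 1 being higher at an unadjusted p under 0.05, while DESeq2 called 1 higher and limma-voom 0. The 8 interfollicular keratinocyte genes summed to 57739 to 62321 CPM in Klf5-/- and 28307 to 31697 CPM in Klf5+/- libraries, all 8 lay above 0 and 1, Krt1, rose. None of these lists had a gene at 0 in all 4 HFD libraries. The first Klf5-/- library had the higher fibroblast, endothelial and muscle sums of its group and the fewer Krtap genes. The part of these cell types in the levels of the hair shaft genes was not tested.

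At E17.5 the summed member level was 11.0, 8.94 and 5.85 CPM in Klf5-/- libraries and 4.42, 6.58 and 5.25 CPM in Klf5+/- libraries. The genotypes overlapped, at 8.60 ± 2.59 and 5.42 ± 1.09 CPM (SD, n = 3 each), a ratio of 1.59. Krt32 supplied 25.1% of member counts in Klf5-/- and 65.8% in Klf5+/- libraries, and without it the ratio was 3.49. Over 50 counts in a library were reached by 4 keratins (Krt32, Krt35, Krt36 and Krt84) and by Krtap13 alone, so single members rest on few reads.

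**Figure D4:**
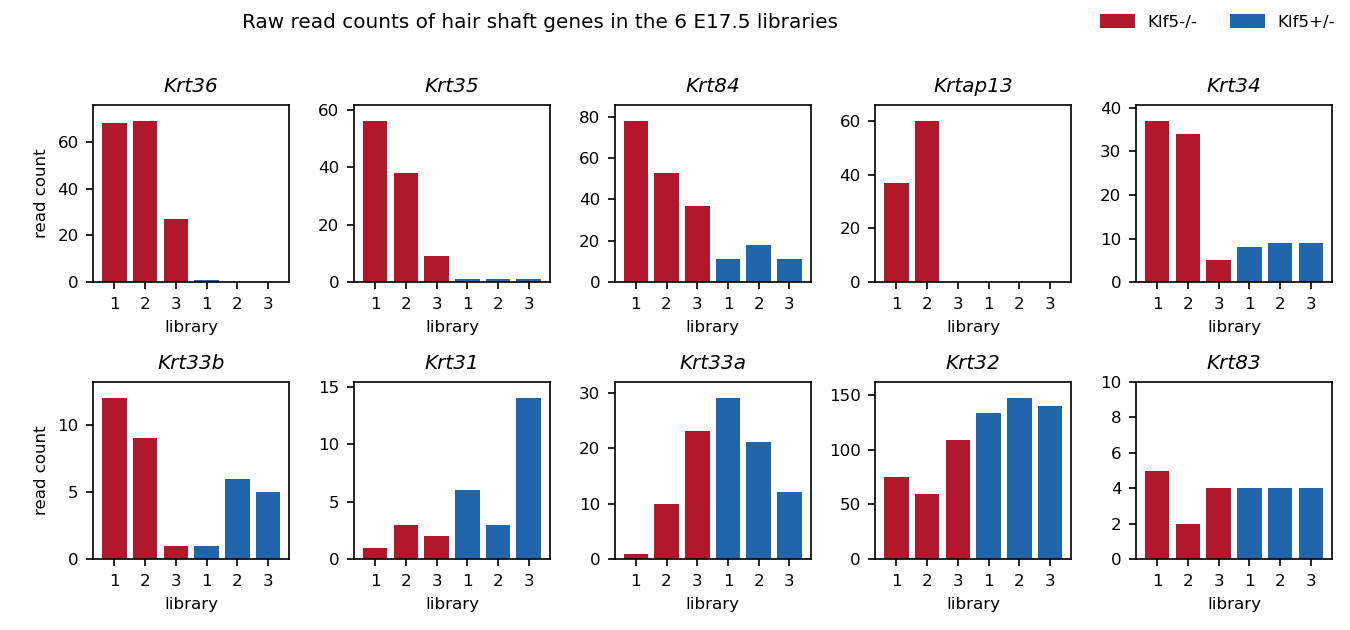
Raw read counts of 10 hair shaft genes in the 6 E17.5 libraries, with the 3 Klf5-/- libraries left of the 3 Klf5+/- libraries in each panel and a separate axis for each gene. Krt36, Krt35 and Krt84 are higher in every Klf5-/- library than in any Klf5+/- library, Krtap13 has counts in 2 Klf5-/- libraries only, and the panels of Krt31, Krt33a and Krt32 have their tallest bar in Klf5+/-.

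The genotype test of the E17.5 set covered 15092 genes, among them 4 members: Krt32, Krt33a, Krt36 and Krt84. Krt36 rose, where 0.0331% of all genes tested rose, and no member fell, where 0.053% of all genes did. Krt36 passed the filter on low counts through the Klf5-/- libraries alone, with no Klf5+/- library over its cutoff, so that among members tested it had to be higher in Klf5-/-. With edgeR 1 of the 4, Krt32, was lower at an unadjusted p under 0.05, where 6.24% of all genes were, and 2 were higher, where 3.78% were. DESeq2 called 3 members higher and 0 lower, where 0.749% and 1.97% of all genes were. Limma-voom called 0 in either direction, where 0.0% of all genes were called. With no filter on low counts edgeR called 3 higher and 0 lower, where 0.203% and 0.821% were. Over the 18 members with any count, the genotypes did not overlap for 4. Krt36, Krt35 and Krt84 were higher in all 3 Klf5-/- libraries than in any Klf5+/- library (3 of 18, against 5.56% of all genes with any count), and Krt31 was lower (1 of 18, against 6.19%).

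Krt36 had 68, 69 and 27 counts in Klf5-/- libraries and 1, 0 and 0 counts in Klf5+/- libraries. The level was 1.45 ± 0.642 CPM in Klf5-/- and 0.00719 ± 0.0125 CPM in Klf5+/- (SD, n = 3 each), and each Klf5+/- library was below the 3-count floor. Krt36 rose by 6.99 on the log2 scale (adjusted p = 0.0308 by edgeR, SE 0.86). The ratio of summed counts was 174, with an exact interval from 30.8 to 6919. The direction was kept in all 13 alternative settings tried and the call in 7 of them. The call was lost without the first or second Klf5-/- library (edgeR adjusted p = 0.220 and 0.0740) and without Klf5+/- library 1, 2 or 3 (0.0693, 0.187 and 0.0589), and under limma-voom (adjusted p = 0.0680). Without Klf5-/- library 3 the adjusted p was 0.000703.

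Krt84 had 78, 53 and 37 counts in Klf5-/- and 11, 18 and 11 in Klf5+/- libraries, and the groups did not overlap. Its log2 fold change of 2.12 (SE 0.50) did not pass (edgeR adjusted p = 0.128). From the summed counts Krt84 was 4.46-fold higher in Klf5-/- libraries at E17.5 (exact interval 3.14 to 6.46) and 4.86-fold higher in the HFD set (3.39 to 7.15). Krt35 had 56, 38 and 9 counts in Klf5-/- and 1, 1 and 1 in Klf5+/- libraries. It was not tested, since Klf5-/- library 3, at 0.240 CPM, lay under the filter's cutoff of 0.262 CPM. Its ratio of summed counts was 36.5, with an exact interval from 12.1 to 180. Krtap13, a high-sulphur gene, had 37, 60 and 0 counts in Klf5-/- and none in Klf5+/- libraries, at least 34.3-fold higher with the floor of 3 counts over the group. It rests on 2 libraries, since Klf5-/- library 3 was at 0. Krt34 had 37, 34 and 5 counts in Klf5-/- and 8, 9 and 9 in Klf5+/- libraries, and so overlapped. Klf5-/- library 3 was the lowest of its group for Krt36, Krt35, Krt84, Krt34, Krt33b and Krtap13.

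The remaining keratins did not pass or were not tested at E17.5. Krt32, with the largest count in the set, had 75, 59 and 109 counts in Klf5-/- and 133, 147 and 140 in Klf5+/- libraries (log2 fold change −0.72, adjusted p = 0.442 by edgeR, SE 0.30). In CPM the genotypes of Krt32 overlapped, at 2.16 ± 0.731 in Klf5-/- and 3.57 ± 0.783 in Klf5+/- (SD, n = 3 each). Krt33a had 1, 10 and 23 counts in Klf5-/- and 29, 21 and 12 in Klf5+/- libraries (−0.79, adjusted p = 0.853 by edgeR, SE 0.78). Krt31 had 1, 3 and 2 counts in Klf5-/- and 6, 3 and 14 in Klf5+/- libraries. Krt33b had 12, 9 and 1 counts in Klf5-/- and 1, 6 and 5 in Klf5+/- libraries. Krt83 had 5, 2 and 4 counts in Klf5-/- and 4 in each Klf5+/- library. Krt81 had 1 count in all, Krt86 had 3 and Krt82 had none, and these did not pass the filter of the E17.5 test.

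Of the Krtap genes at E17.5, only Krtap13, Krtap10-10, Krtap12-1, Krtap3-2, Krtap10-4, Krtap17-1 and Krtap3-3 had any count. Krtap10-10 had 21 counts in Klf5-/- and 16 in Klf5+/- libraries. It lies within Tspear, which had 1045 to 1753 counts per library, and reads of the 2 genes may not have been told apart. Krtap12-1 had 12 counts in each genotype. Krtap17-1, which had the highest Krtap level in both genotypes of the HFD set, had 2 counts in Klf5-/- and 1 in Klf5+/- libraries.

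At E17.5 edgeR called 0 of 95 tested genes of the other follicle and cell type lists. At an unadjusted p under 0.05 edgeR had 18 of them higher and 6 lower, where 3.78% and 6.24% of all genes were. DESeq2 called 8 higher and 5 lower of 114, where 0.749% and 1.97% of all genes were. Of those 5 lower, 4 were interfollicular keratinocyte genes. Limma-voom called 0 of the list genes, where 0.0% of all genes were called. The inner root sheath list summed to 39.5 to 52.4 CPM in Klf5-/- and 26.6 to 41.3 CPM in Klf5+/- libraries, with 4 of 5 tested genes above 0. The list of other shaft proteins summed to 49.9 to 96.6 CPM in Klf5-/- and 133 to 203 CPM in Klf5+/- libraries, and most of that sum was Tgm3, a transglutaminase also made by interfollicular epidermis, at 62.2 ± 26.1 CPM in Klf5-/- and 166 ± 35.6 CPM in Klf5+/- (SD, n = 3 each; edgeR adjusted p = 0.188). Fibroblast markers summed to 1710 to 1926 CPM in Klf5-/- and 1519 to 1889 CPM in Klf5+/- libraries. Most of that sum was Postn (means of 1152 CPM in Klf5-/- and 1180 CPM in Klf5+/-) and Dcn (556 and 456 CPM). Of 9 tested fibroblast genes 8 lay above 0, with a median log2 fold change of 1.59, and DESeq2 called 4 higher. Dermal papilla markers summed to 7.66 to 10.2 CPM in Klf5-/- and 5.38 to 6.65 CPM in Klf5+/- libraries, with 6 of 6 tested genes above 0. Melanocyte markers summed to 478 to 519 CPM in Klf5-/- and 430 to 467 CPM in Klf5+/- libraries, with 7 of 8 above 0. The genotypes did not overlap in the dermal papilla, melanocyte and endothelial sums, which were higher in Klf5-/-. Nor did they in the sums of other shaft proteins and of interfollicular keratinocyte genes, which were lower in Klf5-/-. Endothelial markers summed to 1.79 to 2.65 CPM in Klf5-/- and 0.631 to 1.40 CPM in Klf5+/- libraries, with 4 of 4 above 0. Erythroid markers summed to 266 to 2729 CPM in Klf5-/- and 15.8 to 1117 CPM in Klf5+/- libraries, and the 8 interfollicular keratinocyte genes to 52832 to 69013 CPM in Klf5-/- and 74890 to 93265 CPM in Klf5+/- libraries. Krt39, Krt40, Gprc5d and Krt26 had no count in any E17.5 library. The part of these cell types in the levels of Krt36 and Krt84 was not tested.

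The genotype effects of the 2 sets were set against each other in a fit of all 10 libraries, as the effect in the HFD set minus that at E17.5. Of 31 members in that fit, 15 had no count in any E17.5 library, so that no difference can be estimated for them. Of the other 16, 4 had a lower effect in the HFD set, where 7.61% of 17260 genes did: Krt36 (−8.86, adjusted p = 0.00267 by edgeR, SE 1.09), Krt35 (−8.39, adjusted p = 0.00272 by edgeR, SE 0.99), Krt33b (−4.28, adjusted p = 0.0295 by edgeR, SE 1.13) and Krt83 (−3.23, adjusted p = 0.0439 by edgeR, SE 0.95). None had a higher effect, where 7.07% of all genes did; at an unadjusted p under 0.05 edgeR gave 0 of 16, where 14.4% of all genes were, and DESeq2 and limma-voom called 0, where 10.2% and 7.41% were. DESeq2 called 5 lower, where 10.9% of all genes were, limma-voom called 5 of the 16 and 4 of the 15 with no count at E17.5, for which it gives no interpretable difference, where 9.17% of all genes were, and edgeR with no filter on low counts called 4 lower and 0 higher, where 5.01% and 4.56% were. At an unadjusted p under 0.05 edgeR had 7 of 16 lower, where 15.8% of all genes were. Krt36 and Krt35 were high in Klf5-/- at E17.5 and low in Klf5-/- in the HFD set, and both were called in every alternative setting that could test them. The count of 4 became 2 without Klf5-/- library 1 or Klf5+/- library 3 of the E17.5 set, or without Klf5-/- library 2 or Klf5+/- library 1 of the HFD set. With 1 library left out, Krt33b was called only without Klf5-/- library 3, Klf5+/- library 1 or Klf5+/- library 2 of the E17.5 set or Klf5-/- library 1 of the HFD set. Krt83 was called only without Klf5-/- library 2 of the E17.5 set or Klf5+/- library 2 of the HFD set. For Krt84 the difference was 0.12 (adjusted p = 0.952 by edgeR, SE 0.77), and its sign changed with library-total scaling (−0.18). The sets differ in sorting, preparation and library kit, which cannot be told apart in this difference.

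Chromatin of wild-type-labelled E17.5 epithelium, sorted by the same markers, was measured once per assay, with peaks called by the authors; the title of the ATAC library says Het. Within 1 kb of the annotated start, 0 of the 67 members had a peak of KLF5 and 0 a peak of H3K27ac, a histone mark of active promoters and enhancers. Of the other 39112 genes, 8.20% had a KLF5 peak and 25.1% an H3K27ac peak there. A peak of open chromatin (ATAC) lay within 1 kb of 1 member, Krtap3-3, against 37.6% of the other genes. Within 5 kb the counts were 1 for KLF5, 4 for H3K27ac and 4 for ATAC, against 11.1%, 30.4% and 46.9% of the other genes. The KLF5 peak was upstream of Krt33a, at chr11:100021131-100021341 with its edge within 5 kb and its summit 5068 bases before the start, and with an authors' fold enrichment of 4.41. An H3K27ac peak (chr11:100020978-100021573) and an ATAC peak (chr11:100021113-100021599) lay over the same place. H3K27ac peaks within Krt31 and Krt32 and beside Krtap3-3, and ATAC peaks upstream of Krt84 (3720 bases before the start) and of Krtap12-1 (4125 bases before the start), made up the rest. Neither Krt36 nor Krt35 had a peak of any of the 3 kinds within 5 kb.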

How the data were processed

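RNA was measured in 10 libraries, 3 Klf5-/- and 3 Klf5+/- at E17.5 and 2 Klf5-/- and 2 Klf5+/- of the HFD set. The deposited values are raw read counts per Ensembl gene, made with STAR 2.6.0b and HTSeq on mm10, per the submitters' processing notes; no source used here gives the strand setting. For the chromatin libraries the authors deposited MACS2 peak lists, whose fold enrichment is a ratio and whose significance is a −log10 q, with Bowtie 1.0.1 and Bowtie2 2.2.3 also named in the submitters' processing notes without a role. The HaCaT peak lists and the IgG library were not used here.

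Counts were tested within each set with edgeR 4.0.16 (quasi-likelihood, TMM, filterByExpr, robust) in R 4.3.3, with Benjamini-Hochberg adjustment over all genes and a threshold of 0.05; DESeq2 1.42.0 and limma-voom (limma 3.58.1) were alternatives. SE is the absolute log2 fold change over the root of F. CPM are TMM-scaled. Ratios of summed counts carry exact conditional binomial intervals at 95%. Rows that name no gene were left out: 13.4 to 16.9% of reads met no gene and 1.07 to 3.79% more than 1 gene. Tables were joined and summed in Python 3.11.15 (pandas 2.3.3, numpy 2.4.6). The edgeR step was tested on simulated data.

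Same-numbered Klf5-/- and Klf5+/- libraries did not deviate together at E17.5 (r = 0.0681, −0.131 and 0.282), and the HFD set has only 2 pairs, so the fits have no replicate block. Named genes were the members past a threshold, the hair keratins, the Krtap genes of highest mean CPM, and list genes past a threshold; other members named were chosen after their values were seen. Members and lists were chosen with earlier results of these data known.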

Additional observations from a re-analysis of the deposited data

Results flagged for a closer look

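The genotype effect differed between the HFD set and E17.5 for 4 keratins, by the test of the difference itself (edgeR, 10 libraries, HFD minus E17.5). Krt36 had a difference of −8.863 on the log2 scale, and Krt35 had −8.388. For both, every Klf5-/- library lay above every Klf5+/- library at E17.5 and below every Klf5+/- library in the HFD set. Krt33b had a difference of −4.285, with overlapping genotypes at E17.5. Krt83 had a difference of −3.23 and stood at 2 to 5 counts in every E17.5 library. The adjusted p of Krt33b and Krt83 missed 0.05 in 7 of 16 and 10 of 17 alternatives.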

How the results depend on the processing

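At E17.5, where 1 member was called higher, 3 were called with no filter on low counts and 3 by DESeq2. It was 0 with a minimum mean of 1 CPM, 0 by limma-voom, and 0 to 4 when each library was left out in turn. Over all genes, in either direction, the main fit called 13. These settings called 237, 447, 2, 0 and 0 to 513 genes in that order. In the HFD set, where 6 were called lower, 15 were with no filter, 14 by DESeq2, 10 by limma-voom, 11 in the fit of all 10 libraries, and 1 to 20 when each library was left out. Where 0 were called higher there, 1 was with no filter, 1 by DESeq2, 1 in the fit of all 10 libraries, and 0 to 1 when each library was left out. For the difference, where 4 were lower, 2 were with a minimum mean of 1 CPM and 9 by limma-voom (4 of them with no count at E17.5). It was 2 to 5 when each E17.5 library was left out. Over all genes the main fit called 7.61% lower and limma-voom 9.17%. With the replicate block, 2 were lower in the difference, Krt36 and Krt35, and 7 in the HFD set, while Krt36 stayed called at E17.5. Over all genes that block gave 1520 calls in the HFD set and 42 at E17.5. The replicate numbers were not shown to pair the libraries.

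The mean number of members detected was 13.7 in E17.5 Klf5-/- libraries at 1 count, 9.33 at 3 counts and 6.67 at 10 counts; in E17.5 Klf5+/- libraries it was 12, 8.33 and 3.33. It was 33 in HFD Klf5-/- libraries at 1 count and 13 at 10 counts, and 49.5, 42.5 and 32 in HFD Klf5+/- libraries at 1, 3 and 10 counts. Peaks within 5 kb in place of 1 kb numbered 1 for KLF5, 4 for H3K27ac and 4 for ATAC (11.1%, 30.4% and 46.9% of other genes). The ratio of summed levels, with alternatives chosen after seeing the data, was 0.174 in the HFD set without Krtap17-1 and Krtap3-2 and 0.393 without Krt35, and 0.239 to 0.317 when each library was left out. At E17.5 it was 3.49 without Krt32 and 1.36 to 1.84 when each library was left out.

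The sign turned for uncalled values only. Krtap3-2 in the HFD set ran from −0.11 to 1.41 when each library was left out. For the difference, Krt33a was 0.025 by limma-voom and −1.11 to 0.49 when each library was left out, and Krt84 was −0.18 with library totals and −0.31 to 0.47. Likewise Krt32 ran from −0.35 to 0.17, Krt31 from −1.33 to 0.00143, Krt86 from −1.37 to 0.00866 and Krtap10-10 from −2.10 to 0.24. With library totals in place of TMM the median of all genes moved to −0.23 in the HFD set and −0.31 for the difference. The cause of these changes was not tested. Counts under 3 per library limit most E17.5 members.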
